A study of Homo sapiens with 5 samples.

Results

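Expression was compared between H1 cells that had received insulin during mesoderm differentiation and H1 cells kept in differentiation basal medium. The comparison takes the array labelled INS against the array labelled Ctrl, which are 2 of the 5 arrays of the series, and all of the 30106 named probes among the 47299 probes on each array. H1 is an established human embryonic stem cell line. In every condition, control included, mesoderm had been induced with CHIR99021, which activates canonical WNT signaling by blocking GSK3, on matrigel-coated plates. Insulin was present from day 2 to day 5, the control stayed in basal medium over those days, and both cultures were harvested on day 10. The array therefore reads cells 5 days after the end of that treatment. Whether the medium of the later days held insulin is not given. The remaining arrays hold cells given IWP2, which blocks the secretion of WNT ligands, LY294002, which inhibits phosphoinositide 3-kinase (PI3K), or both agents over the same days. The insulin dose, the makeup of the basal medium and the number of cultures behind an array are not given in the sources used here.

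Insulin and the insulin-like growth factors bind receptor tyrosine kinases that recruit insulin receptor substrate proteins and activate PI3K and the kinase AKT. AKT stimulates mTOR, which raises protein synthesis and the supply of amino acids through the transcription factor ATF4, and keeps FOXO transcription factors out of the nucleus. In differentiating pluripotent stem cells, insulin given during cardiac mesoderm stages is known to lower the yield of cardiomyocytes.

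Each condition had 1 array, so no difference was tested and none could be set against replicate error. Values are normalized intensities on the log2 scale, on which a difference of 1 is 2-fold, and each difference is insulin minus control. Detected genes numbered 9284 on the insulin array and 9292 on the control array. The median raw intensity was 118.2 with insulin and 114.8 in the control, and the 95th percentile was 815.3 with insulin and 674.7 in the control. Both arrays carried markers of several lineages. The liver and yolk sac marker AFP read 14.34 with insulin and 14.18 in the control, the cardiomyocyte marker ACTC1 read 11.90 with insulin and 11.95 in the control, and the fibroblast marker COL3A1 read 13.34 with insulin and 13.27 in the control. ACTC1 does not stand for its group. The cardiomyocyte marker MYL7 differed by -0.71, and 20 contractile genes detected on both arrays had a median difference of -0.95. The arrays read bulk RNA of such mixed cultures, and fewer cells of a type cannot be told apart from less RNA per cell.

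Over 8680 genes detected on both arrays, levels were closely alike (Pearson r = 0.963 across genes, which are not independent replicates). The differences had a median of -0.00 and quartiles of -0.29 and 0.29. Within 1.5-fold of the control lay 81.4% of these genes. At least 2-fold higher with insulin were 148 genes (1.71%) and at least 2-fold lower 163 (1.88%), together 3.58%. Genes with a positive difference made up 49.7% and genes with a negative difference 50.2%. Without background correction these counts were 39 higher and 31 lower. A further 604 genes were detected with insulin but not in the control (6.1% of genes detected on either array) and 612 in the control but not with insulin (6.18%). Such a gene has only a bound, and the bound reached 2-fold for 12 of the genes seen with insulin alone (1.99%) and 12 of the genes seen in the control alone (1.96%).

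**Figure D1:**
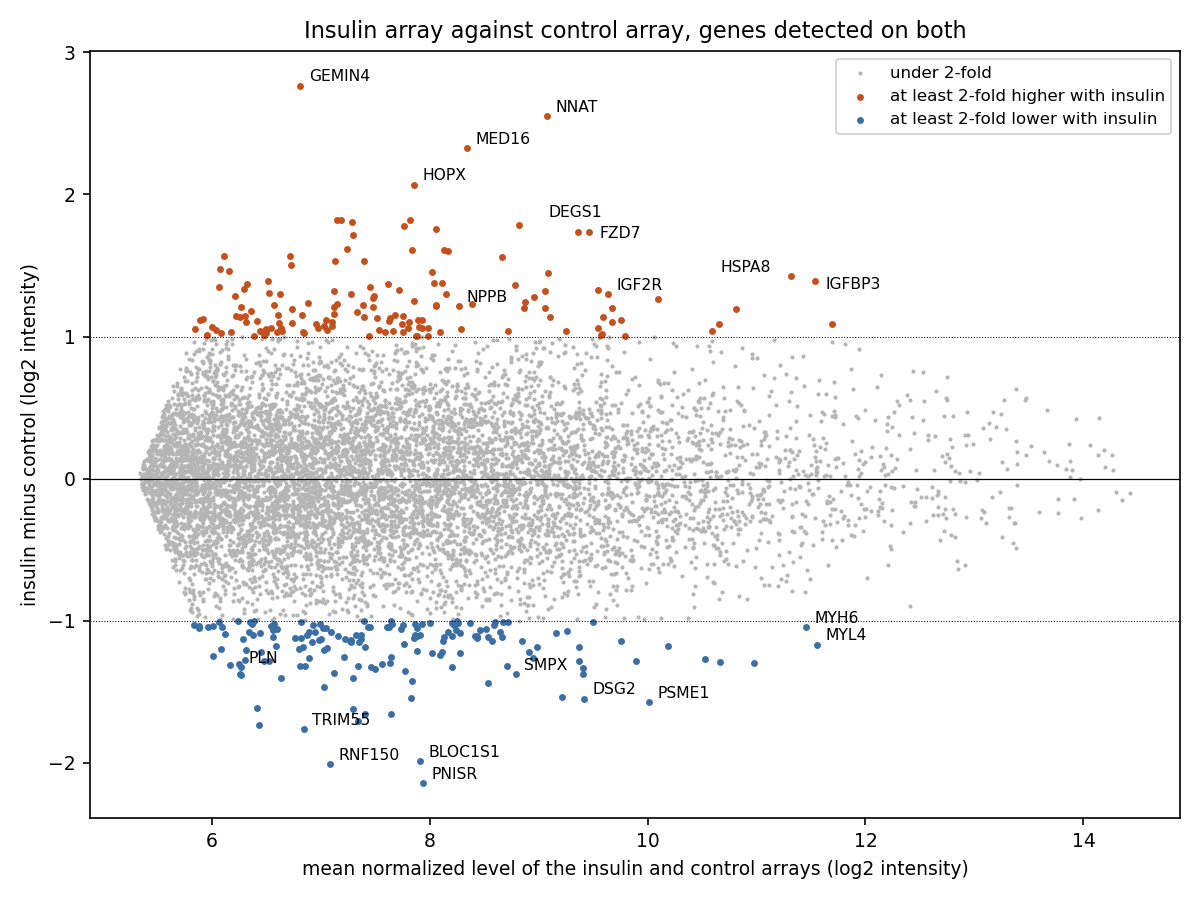
Difference between the insulin and control arrays for each of 8680 genes detected on both. The horizontal axis is the mean normalized level of the 2 arrays (log2 intensity), the vertical axis insulin minus control (log2 intensity), and dotted lines mark 2-fold. The 148 genes at least 2-fold higher with insulin and the 163 at least 2-fold lower are coloured, most of them below a mean level of 10, and none lies above a mean level of 12.

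Genes past 2-fold were unevenly spread over signal levels. Of 1357 genes with a mean level under 6, 4 were at least 2-fold higher with insulin and 5 lower. Between 6 and 8 these were 98 and 103 of 4118 genes, between 8 and 10 they were 39 and 48 of 2306, and between 10 and 12 they were 7 and 7 of 720. Of 179 genes above 12 none (0) passed 2-fold in either direction. The low count under 6 follows at least in part from the detection rule. Both levels of a counted gene must reach the lowest detected level, 5.33 with insulin and 5.32 in the control. That leaves little room for a 2-fold difference at a mean under 6, and it narrows the SD there too. The SD of the differences across genes was 0.36 under 6, 0.49 between 6 and 8 and 0.32 above 12. It describes the spread over genes and is no replicate error.

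In the list of insulin and IGF receptors, ligands and receptor substrates, most members detected on both arrays lay above the control. Of the ligand and receptor genes, only IGF2 and IGF2R were among them. IGF2, a fetal growth factor that signals through the insulin and IGF1 receptors, read 7.83 with insulin and 6.89 in the control, a difference of 0.94, which was 0.28 when all detected probes of the gene were averaged. IGF2R, the receptor that takes IGF2 up for degradation, read 10.29 with insulin and 8.99 in the control, a difference of 1.30. On the inhibitor arrays IGF2R read 8.88 with IWP2, 7.44 with LY294002 and 8.58 with both, so the insulin array held the highest level of the 5. IGF2BP2, which binds IGF2 messenger RNA, differed by 0.62. The receptor substrates were close to the control, with IRS1 at 7.34 with insulin and 7.49 in the control and IRS2 at 6.06 with insulin and 5.83 in the control. The probes used for INSR, IGF1R and IGF1 were not detected on either array, which does not show that the transcripts are absent. Of the list's 12 members detected on both arrays, 1 was at least 2-fold higher, 0 were lower, and 9 of 12 had a positive difference, with a median of 0.21 against -0.00 over all genes.

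Genes of IGF-binding proteins and the proteases that cleave them read higher at several members. IGFBP3, the main carrier of IGFs in serum, read 12.23 with insulin and 10.84 in the control (difference 1.39, and 8.59, 8.66 and 6.48 with IWP2, LY294002 and both). IGFBP5 differed by 0.96, HTRA1, a secreted serine protease, by 0.89, and STC2, an inhibitor of the protease PAPPA, by 0.80. IGFBP7 read 8.94 with insulin and 9.39 in the control, and IGFBP1, a gene that insulin is known to repress in liver, read 5.45 with insulin and 5.73 in the control. Of 9 members detected on both arrays 1 was at least 2-fold higher and 0 lower, and the median was 0.38.

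The kinases below the receptor showed no common shift. Of 26 members of the PI3K, AKT and mTOR list detected on both arrays, none (0) passed 2-fold in either direction, 13 were above 0 and 13 below, and the median was -0.01. MTOR itself differed by 0.65 and SESN2, a stress-induced inhibitor of mTOR complex 1 that senses leucine, by 0.74. RPS6KB2, an S6 kinase, read 9.16 with insulin and 10.08 in the control, and RHEB, the GTPase that activates mTOR complex 1, read 9.46 with insulin and 10.08 in the control. AKT1 read 9.94 with insulin and 9.79 in the control. Of 23 FOXO factors and FOXO-responsive genes, 1 was at least 2-fold higher and 0 lower, with 13 above 0 and a median of 0.20. The 1 higher gene was CITED2, a transcriptional coregulator, at 8.94 with insulin and 7.33 in the control. The inhibitor arrays read 9.0, 8.62 and 8.95 with IWP2, LY294002 and both, so for CITED2 it was the control array that stood apart. FOXO3 differed by 0.59, PDK4, which restrains glucose oxidation, by 0.62, KLF6 by 0.66, and the mitochondrial superoxide dismutase gene SOD2 by -0.66.

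Amino acid supply genes had the highest median of all lists with at least 5 members detected on both arrays. ATF4 drives genes that make, import and charge amino acids, and many carry a CCAAT-enhancer and ATF composite motif near their start. The promoters of ASNS and AARS1 are shown because, of the list members detected on both arrays with a RefSeq promoter, they carry that motif and also read higher with insulin. Each is the 250 bases before the start, from RefSeq on GRCh38.p14, written in the direction of transcription, with the match to TGATGNAA on either strand in capitals.
ASNS, chr7:97872409-97872658, minus strand: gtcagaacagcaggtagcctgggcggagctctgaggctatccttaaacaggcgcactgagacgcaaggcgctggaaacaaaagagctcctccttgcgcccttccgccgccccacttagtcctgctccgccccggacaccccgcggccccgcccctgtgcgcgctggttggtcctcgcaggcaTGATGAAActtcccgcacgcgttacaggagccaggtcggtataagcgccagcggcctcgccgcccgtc
AARS1, chr16:70289507-70289756, minus strand: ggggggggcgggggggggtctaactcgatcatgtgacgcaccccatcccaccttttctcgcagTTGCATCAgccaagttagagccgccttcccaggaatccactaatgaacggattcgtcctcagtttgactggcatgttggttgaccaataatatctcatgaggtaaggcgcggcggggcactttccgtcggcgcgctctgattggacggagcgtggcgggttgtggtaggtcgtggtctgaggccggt
The match begins 68 bases before the start in ASNS and 187 bases before it in AARS1, where it lies on the opposite strand. TGATGNAA was found in 3 of 22 promoters of this list, the remaining one being ATF3, and in 1.46% of 7136 promoters of genes detected on both arrays. A match is a description of the letters and not a measured binding site.

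ASNS, which makes asparagine, read 10.09 with insulin and 9.17 in the control, a difference of 0.92, and 7.54, 7.79 and 7.83 with IWP2, LY294002 and both. AARS1, the alanyl-tRNA synthetase, read 11.34 with insulin and 10.89 in the control, and the glycyl-tRNA synthetase gene GARS1 read 11.08 with insulin and 10.11 in the control (difference 0.97). On both, as on ASNS, the insulin array held the highest level of the 5 and the inhibitor arrays lay below the control. PHGDH, the entry enzyme of serine synthesis, read 12.90 with insulin and 12.15 in the control, and 11.65, 11.02 and 9.79 with IWP2, LY294002 and both. The serine enzymes PSAT1 and PSPH differed by 0.51 and 0.39, the folate enzymes SHMT2 and MTHFD2, which pass on the carbon of serine, by 0.71 and 0.44, and CTH, which makes cysteine, by 0.92. The leucine transporter gene SLC7A5 read 9.70 with insulin and 9.03 in the control, and its partner SLC3A2 read 9.80 with insulin and 9.52 in the control. These members were above the control, each by less than 2-fold.

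ATF4 itself read 12.32 with insulin and 12.15 in the control. DDIT3, the stress factor CHOP, read 6.39 with insulin and 6.72 in the control, CBS, an enzyme of homocysteine disposal, read 9.58 with insulin and 9.95 in the control, and ATF3 differed by -0.13. Of the 24 members detected on both arrays, 0 passed 2-fold in either direction, 19 of 24 had a positive difference against 49.7% of all genes, and the median was 0.44. That median lay between 0.33 without background correction and 0.48 under cyclic loess.

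**Figure D2:**
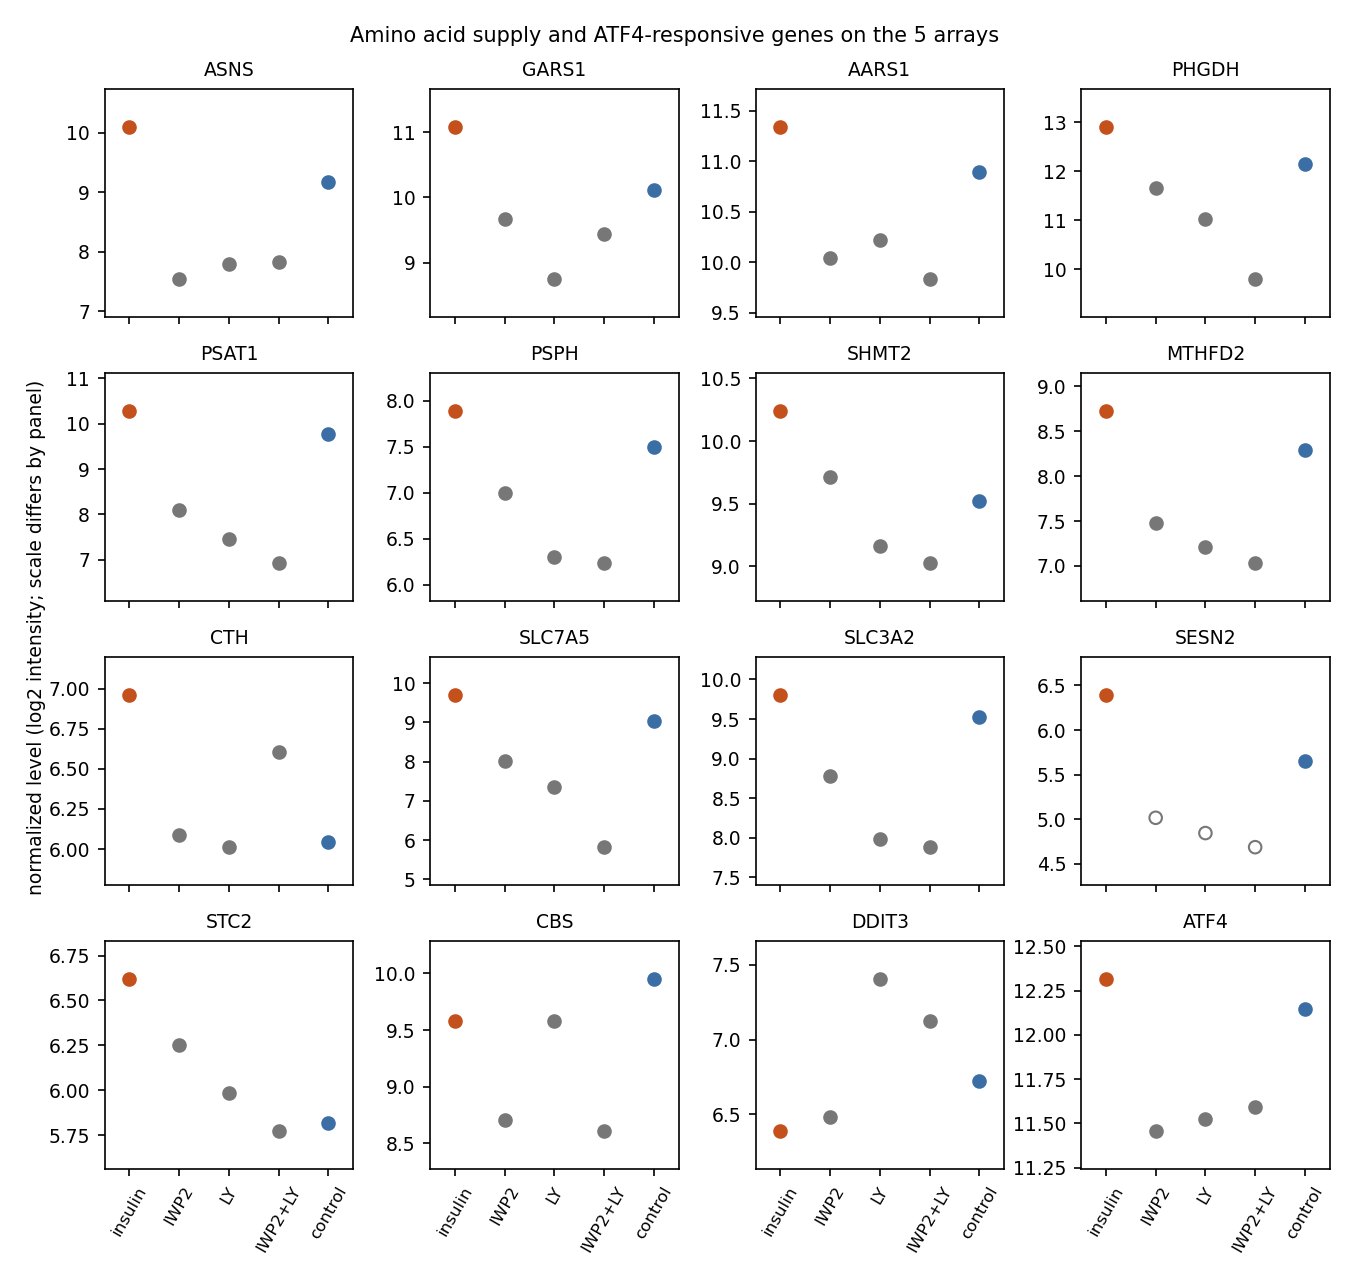
Normalized levels (log2 intensity, vertical axis, scale differing by panel) of 16 amino acid supply and ATF4-responsive genes on the insulin, IWP2, LY294002 (LY), IWP2+LY294002 (IWP2+LY) and control arrays, 1 array each. Open points mark probes that were not detected. The insulin point is above the control point in 14 panels, by 0.17 (ATF4) to 0.97 (GARS1), and below it for CBS and DDIT3.

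Other anabolic and energy lists moved less. Of 29 glycolysis and hypoxia genes detected on both arrays none (0) passed 2-fold, 19 lay above 0 and 10 below, and the median was 0.24. PFKFB4, a regulator of glycolytic flux, read 9.26 with insulin and 8.32 in the control, and BNIP3, a hypoxia-induced mitophagy receptor, read 11.43 with insulin and 10.58 in the control. PGAM1 differed by 0.78, whereas ENO3, the muscle enolase, read 7.93 with insulin and 8.77 in the control. In the cholesterol and fatty acid synthesis list 20 of 27 genes lay above 0, 1 was at least 2-fold higher and 1 lower, with a median of 0.22. EBP, a sterol isomerase, read 9.50 with insulin and 8.25 in the control, and SC5D, the desaturase that acts after it, read 9.59 with insulin and 10.77 in the control, so neighbouring steps of 1 pathway differed in opposite directions. ACACA, the carboxylase that commits carbon to fatty acids, differed by 0.96, FASN by 0.47, SCD by 0.47 and the elongase gene ELOVL6 by -0.92. Fatty acid oxidation and peroxisomal genes had a median of -0.06 over 25 genes, with PECR (8.09 with insulin, 6.27 in the control) and ACAA1 (9.60 with insulin, 8.32 in the control), both peroxisomal, at least 2-fold higher and CPT1A, the mitochondrial entry step, at least 2-fold lower (5.37 with insulin, 6.40 in the control).

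Cardiomyocyte genes were the group furthest below the control. The MEF2 site, an AT-rich motif bound by a muscle transcription factor family, is found near many of these genes. Promoters of 3 members that were at least 2-fold lower with insulin and of 1 that read higher are shown because they share that site while differing in direction. Each is again the 250 bases before the start from RefSeq on GRCh38.p14, in the direction of transcription, with the match in capitals.
SMPX, chrX:21758117-21758366, minus strand: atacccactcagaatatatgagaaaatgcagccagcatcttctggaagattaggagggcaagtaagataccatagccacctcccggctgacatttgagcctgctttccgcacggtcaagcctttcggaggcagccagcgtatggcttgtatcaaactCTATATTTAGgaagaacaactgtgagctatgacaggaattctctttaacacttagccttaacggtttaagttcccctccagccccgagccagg
FHL2, chr2:105438514-105438763, minus strand: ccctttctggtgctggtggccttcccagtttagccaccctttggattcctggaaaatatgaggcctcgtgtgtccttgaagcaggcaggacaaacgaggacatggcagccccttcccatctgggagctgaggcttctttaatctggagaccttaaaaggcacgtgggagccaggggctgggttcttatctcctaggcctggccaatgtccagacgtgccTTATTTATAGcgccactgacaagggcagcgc
HSPB7, chr1:16018044-16018293, minus strand: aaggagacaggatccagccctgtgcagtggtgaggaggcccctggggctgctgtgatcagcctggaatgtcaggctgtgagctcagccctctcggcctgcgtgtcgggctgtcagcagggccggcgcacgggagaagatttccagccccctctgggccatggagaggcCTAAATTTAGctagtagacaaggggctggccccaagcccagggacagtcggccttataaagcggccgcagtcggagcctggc
SYNPO2L, chr10:73656030-73656279, minus strand: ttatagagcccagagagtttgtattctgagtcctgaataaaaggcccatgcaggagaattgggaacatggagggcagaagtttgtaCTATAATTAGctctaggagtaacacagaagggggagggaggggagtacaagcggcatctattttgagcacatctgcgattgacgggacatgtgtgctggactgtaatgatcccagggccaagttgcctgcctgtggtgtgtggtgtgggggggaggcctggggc
The site was found in 5 of 15 cardiomyocyte promoters, the one not shown being KLHL41, and in 1.37% of all 7136. It was found in 1 of 113 promoters of genes at least 2-fold higher with insulin and in 8 of 140 of genes at least 2-fold lower. Those 8 include SMPX, FHL2 and HSPB7, so this count overlaps that of the cardiomyocyte promoters and is not separate from it. The CArG box, which serum response factor binds, was found in 4 of 15 cardiomyocyte promoters and 1.15% of all.

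Of 40 contractile and muscle genes on the array, 20 were detected on both arrays, 6 in the control alone, 1 with insulin alone and 13 on neither. Of the 20, 10 were at least 2-fold lower with insulin and 0 at least 2-fold higher, 18 lay below 0 against 50.2% of all genes, and the median was -0.95. Without background correction 5 were at least 2-fold lower and the median was -0.69. The largest difference was that of TRIM55, a ubiquitin ligase of the sarcomere, at 5.97 with insulin and 7.73 in the control. This difference of -1.76 was -1.25 when its detected probes were averaged, a setting in which SMPX differed by -1.38. SMPX, a small protein of the costamere, read 8.10 with insulin and 9.48 in the control, and its other probe gave 6.15 with insulin and 7.55 in the control. FHL2, a LIM-domain protein of the Z-disc, read 8.32 with insulin and 9.58 in the control, a difference of -1.26. Another of its probes differed by -1.33, but the difference was -0.89 when all detected probes of the gene were averaged.

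Thick- and thin-filament genes differed unevenly. MYL4, the atrial essential light chain, read 10.97 with insulin and 12.14 in the control, and MYH6, the atrial myosin heavy chain, read 10.94 with insulin and 11.98 in the control. TNNC1, cardiac troponin C, read 9.19 with insulin and 10.33 in the control. These brightly read genes were each at least 2-fold lower with insulin, while others stayed closer. The atrial regulatory light chain MYL7 differed by -0.71, MYL3 by -0.85 and tropomyosin TPM1 by -0.61. ACTC1, cardiac alpha-actin, was within 0.04 of the control. NEBL, a nebulin-like Z-disc protein, differed by -1.35, the small heat shock protein gene HSPB7 by -1.25, muscle creatine kinase CKM by -1.21 and the M-band protein gene MYOM1 by -1.05. The members above 0 were SYNPO2L, an actin-bundling Z-disc protein, at 6.33 with insulin and 5.43 in the control, and MYOM2 at 5.66 with insulin and 5.60 in the control. The 6 genes seen in the control alone were ACTN2, CKMT2, HSPB3, MYH7, TRIM63 and UNC45B, with bounds between 1.03-fold and 1.55-fold lower with insulin. DES, the muscle intermediate filament, was seen with insulin alone (6.05 with insulin, at least 1.66-fold higher).

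**Figure D3:**
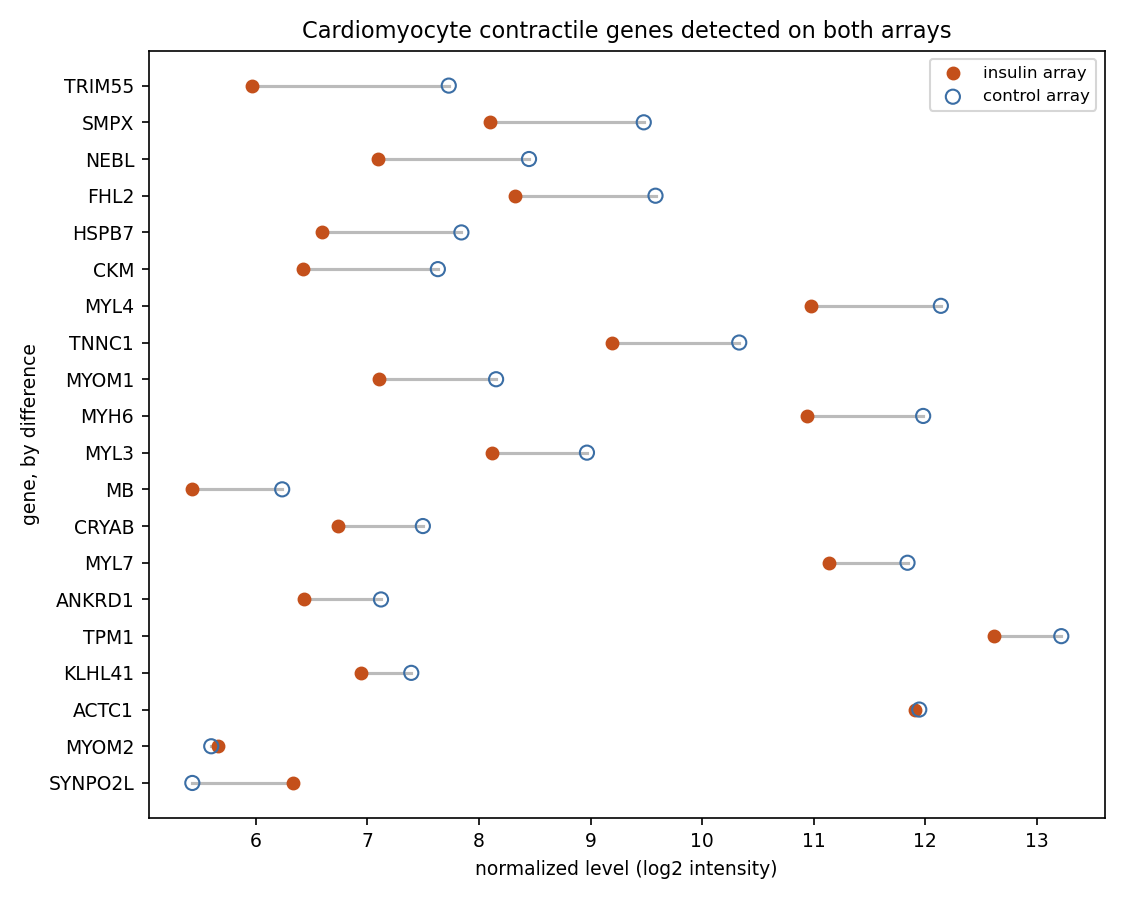
Normalized levels (log2 intensity, horizontal axis) of the 20 cardiomyocyte contractile genes detected on both arrays, ordered by difference, with the insulin array as filled points and the control array as open points. The insulin point lies left of the control point in 18 genes, by up to 1.76 (TRIM55), and right of it for SYNPO2L and MYOM2.

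Calcium-handling and transcription factor genes of the heart split. PLN, the inhibitor of the sarcoplasmic calcium pump, read 5.60 with insulin and 6.93 in the control (difference -1.32, and -0.64 when its probes were averaged). HRC, a calcium buffer of the sarcoplasmic reticulum, read 7.02 with insulin and 8.28 in the control. The pump gene ATP2A2 differed by -0.57 and the L-type channel gene CACNA1C by -0.63. In the opposite direction, NPPB, the B-type natriuretic peptide, read 8.87 with insulin and 7.66 in the control, and HCN4, a pacemaker channel of the sinus node, read 6.24 with insulin and 5.50 in the control. Of 12 members of the calcium and ion list found on both arrays, 1 was at least 2-fold higher and 2 lower, and the median was -0.26.

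The homeobox factors IRX4, a ventricular regulator, and NKX2-5 were seen in the control alone, at least 2.67-fold and 2.06-fold lower with insulin, and so was SMYD1, a muscle methyltransferase (at least 1.54-fold lower). IRX3 read 8.40 with insulin and 9.25 in the control. HOPX, a homeodomain protein without DNA binding that restrains serum response factor, went the other way, at 8.89 with insulin and 6.82 in the control, with 6.76, 6.67 and 5.94 on the IWP2, LY294002 and double-inhibitor arrays. It was thus the insulin array that stood apart for HOPX. RBM24, a splicing regulator of the sarcomere, read 7.17 with insulin and 6.07 in the control, a difference of 1.09 that was 0.42 when its probes were averaged. GATA4, HAND1 and ISL1, which act before contractile genes are switched on, differed by 0.53, 0.31 and 0.11. Of 20 cardiac regulators seen on both arrays, 2 exceeded the control at least 2-fold and 0 lay as far below it, 10 lay above 0 and 10 below, and the median was 0.05.

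Medians of the lists for other lineages lay between -0.25 (pluripotency) and 0.63 (blood, 3 genes). The 29 liver and yolk sac secreted genes detected on both arrays had a median level of 10.86 with insulin and 10.88 in the control, 18 lay above 0, none (0) passed 2-fold, and the median difference was 0.18. The fibrinogen genes FGA, FGB and FGG differed by 0.05, -0.05 and 0.08. The largest positive differences were those of HRG (0.98) and PLG (0.97), both plasma proteins of the liver, with APOE at 0.71. CEBPA, a hepatocyte transcription factor, read 10.27 with insulin and 9.08 in the control, the 1 member at least 2-fold higher among 15 endoderm and hepatic regulators and enzymes detected on both arrays (median 0.17).

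Fibroblast and matrix genes had a median of 0.29 over 24 members, with 14 above 0. PDGFRB, the receptor of mural cells and fibroblasts, read 10.08 with insulin and 9.02 in the control, and the proteoglycan gene BGN read 9.44 with insulin and 8.52 in the control, yet the proteoglycans LUM and DCN differed by -0.31 and -0.29. Collagens had a median of 0.16 over 18 genes, with 12 above 0 and 6 below, and COL4A6, a basement membrane chain, read 11.11 with insulin and 10.07 in the control. Among 12 epicardial and mesothelial genes, whose median was 0.02, CALB2 (calretinin) differed by 1.53, or by 0.65 with its probes averaged. Smooth muscle genes had a median of -0.03 over 11 members, in which ACTA2 read 11.96 with insulin and 12.86 in the control and TAGLN read 12.05 with insulin and 11.37 in the control.

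The epithelial adhesion genes CDH1 and EPCAM differed by 0.53 and 0.52, and of 12 epithelial genes detected on both arrays 8 lay above 0 and none (0) passed 2-fold (median 0.16).

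Endothelial genes differed in both directions, with 7 above 0 and 6 below of 13 detected on both arrays and a median of 0.10. CDH5, the endothelial cadherin, read 7.01 with insulin and 5.99 in the control, TEK, the angiopoietin receptor, 9.14 with insulin and 8.49 in the control, and FLI1, an endothelial and blood factor, 6.23 with insulin and 5.64 in the control. KDR differed by -0.19, VWF by -0.25 and ESAM, an endothelial adhesion molecule, by -0.44. Over the 3 endothelial genes detected on all 5 arrays the median was -0.04. Of 25 blood genes on the array, 3 were detected on both arrays, 4 with insulin alone, 1 in the control alone and 17 on neither. The fetal globin probes HBG2 and HBG1 read 7.45 and 7.07 with insulin and were at least 4.39-fold and 3.38-fold higher than the control, where neither was detected. The paralogs HBG1 and HBG2 are nearly identical, so their probes may share transcripts. The embryonic globin HBE1 was likewise seen with insulin alone, at 6.05 and at least 1.66-fold higher. The pan-leukocyte gene PTPRC, the erythroid factor GATA1 and HBZ, another embryonic globin, were detected on neither array.

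Of 10 pluripotency genes detected on both arrays 4 lay above 0 and 6 below, with 1 at least 2-fold lower. The probes used for POU5F1 and NANOG were detected on neither array, and L1TD1, a stem cell RNA-binding protein, read 5.58 with insulin and 6.95 in the control. SALL4, a stem cell transcription factor, differed by 0.33 and ZFP42 by -0.62. In the neural and neural crest list, with 6 genes detected on both arrays, 1 was at least 2-fold higher and 2 lower. The higher one was NNAT, a neuronal membrane protein gene, at 10.36 with insulin and 7.81 in the control, while TFAP2A read 5.84 with insulin and 7.12 in the control and LRRTM1 read 8.27 with insulin and 9.42 in the control. Among limb and lateral plate factors, FOXF1, a regulator of splanchnic mesoderm, read 6.89 with insulin and 5.43 in the control, and MSX2 read 6.77 with insulin and 7.87 in the control. FOXF1 was detected on no inhibitor array. PRRX1, a factor of limb and skeletogenic mesenchyme, was seen in the control alone, at least 2.61-fold lower with insulin.

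WNT pathway genes were read because all cultures had been driven by CHIR99021. FZD7, a WNT receptor, read 10.33 with insulin and 8.59 in the control, and 8.64, 7.41 and 6.54 with IWP2, LY294002 and both. The difference of 1.73 was 0.75 when the gene's probes were averaged. Of 10 canonical WNT targets detected on both arrays, MYC was at least 2-fold higher (6.80 with insulin, 5.65 in the control) and 0 were lower. CCND1 differed by 0.96, LEF1 by 0.66 and AXIN2, a feedback inhibitor, by -0.18, and the median was 0.11. The secreted antagonists FRZB, SFRP5 and SFRP1 differed by 0.80, 0.75 and 0.60, and WLS, which carries WNT ligands to the surface, by 0.65. The WNT agonist gene RSPO2 differed by -0.33, WNT5A by -0.21 and the antagonist gene DKK1 by -0.01. Of the 11 WNT ligands and antagonists detected on both arrays 6 lay above 0 and 5 below, none (0) passed 2-fold, and the median was 0.14. BMP and TGF-beta genes had a median of 0.04 over 19 members, with 10 above 0 and 9 below. The inhibitory SMAD gene SMAD6 differed by 0.77, the receptor gene TGFBR2 by 0.72 and the ligand gene BMP2 by 0.72, whereas TGFB3 read 5.86 with insulin and 6.89 in the control and BMP5 read 8.42 with insulin and 9.41 in the control.

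The largest single differences belonged to no common class. GEMIN4, a component of the SMN complex that assembles spliceosomal particles, read 8.20 with insulin and 5.43 in the control, with 7.65, 8.12 and 7.65 on the IWP2, LY294002 and double-inhibitor arrays. MED16, a tail subunit of the Mediator complex, read 9.50 with insulin and 7.18 in the control, with 8.54, 8.59 and 8.41 on those arrays, and HSPA8, the constitutive HSC70 chaperone, read 12.03 with insulin and 10.61 in the control, with 11.87, 12.11 and 12.14. For these 3 genes the control array stood apart from the other 4. Averaging the probes gave a difference of 1.18 for MED16 and 0.58 for HSPA8, while their list medians were 0.03 (Mediator) and 0.09 (heat shock), and that of the SMN complex was -0.01.

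For another set the insulin array held the highest or the lowest level of the 5, though the other arrays also differed among themselves for some genes. INKA1, an inhibitor of the kinase PAK4, read 8.19 with insulin and 6.38 in the control, with 4.84, 5.89 and 5.16 on the IWP2, LY294002 and double-inhibitor arrays. TLN2, a talin that links integrins to actin, read 8.66 with insulin and 6.87 in the control, with 6.61, 7.07 and 5.33, and COBL, an actin nucleator, read 8.94 with insulin and 7.18 in the control, with 6.93, 5.28 and 5.57. LIPG, endothelial lipase, read 8.05 with insulin and 6.43 in the control and was detected on no inhibitor array. Lower than on any other array were PSME1, a proteasome activator subunit, at 9.23 with insulin and 10.80 in the control (10.78, 10.75 and 10.99 with the inhibitors), and PIP4K2A, a phosphoinositide kinase, at 8.45 with insulin and 9.98 in the control (10.02, 9.65 and 9.56). Averaging its probes moved PIP4K2A to -0.55. The core proteasome list, by contrast, had a median of -0.06 with none (0) of 27 genes past 2-fold. DSG2, a desmosomal cadherin of epithelium and heart, read 8.64 with insulin and 10.19 in the control. On the IWP2, LY294002 and double-inhibitor arrays it read 9.44, 8.83 and 9.55, so LY294002 lay close to insulin and the control was the highest. ACYP1, an acylphosphatase, had the largest bound, at least 6.65-fold lower with insulin. Its probe used for that bound differed by -2.94, and the mean of the gene's detected probes by -1.67.

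RNA processing genes had the widest range of differences of any list. PNISR, an arginine- and serine-rich nuclear protein, was measured by 3 probes that differed by -2.14, -1.29 and -1.02. The brightest of them read 6.87 with insulin and 9.01 in the control, with 8.89, 8.25 and 9.14 on the IWP2, LY294002 and double-inhibitor arrays. CLK1, a kinase of SR proteins, read 7.55 with insulin and 8.69 in the control, RBM25 read 8.11 with insulin and 9.19 in the control, and PTBP2, a neural splicing repressor, read 6.61 with insulin and 7.71 in the control. SRSF8 went the other way, at 8.73 with insulin and 6.91 in the control, and RBM5 differed by 1.03. Of 40 splicing factors and regulators measurable on both arrays, 3 exceeded the control at least 2-fold and 6 lay as far below it. The shares over all genes were 1.71% and 1.88%. Of the 40, 25 lay below 0, against 50.2% of all genes, and the median was -0.33. Without background correction 1 was higher and 1 lower, and the median was -0.25.

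Growth machinery lists had medians below the control, the lowest of them for mitosis. Of 65 cytosolic ribosomal protein genes 1 was at least 2-fold higher (RPL28, 7.18 with insulin and 5.88 in the control) and 0 lower, 43 lay below 0, and the median was -0.14. Of 56 respiratory chain genes none (0) passed 2-fold and the median was -0.13. Mitosis genes had a median of -0.27 with 20 of 31 below 0 and none (0) past 2-fold, among them the kinesin gene KIF11 at -0.99 and the survivin gene BIRC5 at 0.82. DNA replication genes had a median of -0.20, again with 20 of 31 below 0. The helicase subunit gene MCM2 read 7.28 with insulin and 5.98 in the control and MCM3 read 11.01 with insulin and 10.19 in the control, whereas ORC3, of the origin recognition complex, read 6.49 with insulin and 8.20 in the control.

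**Figure D4:**
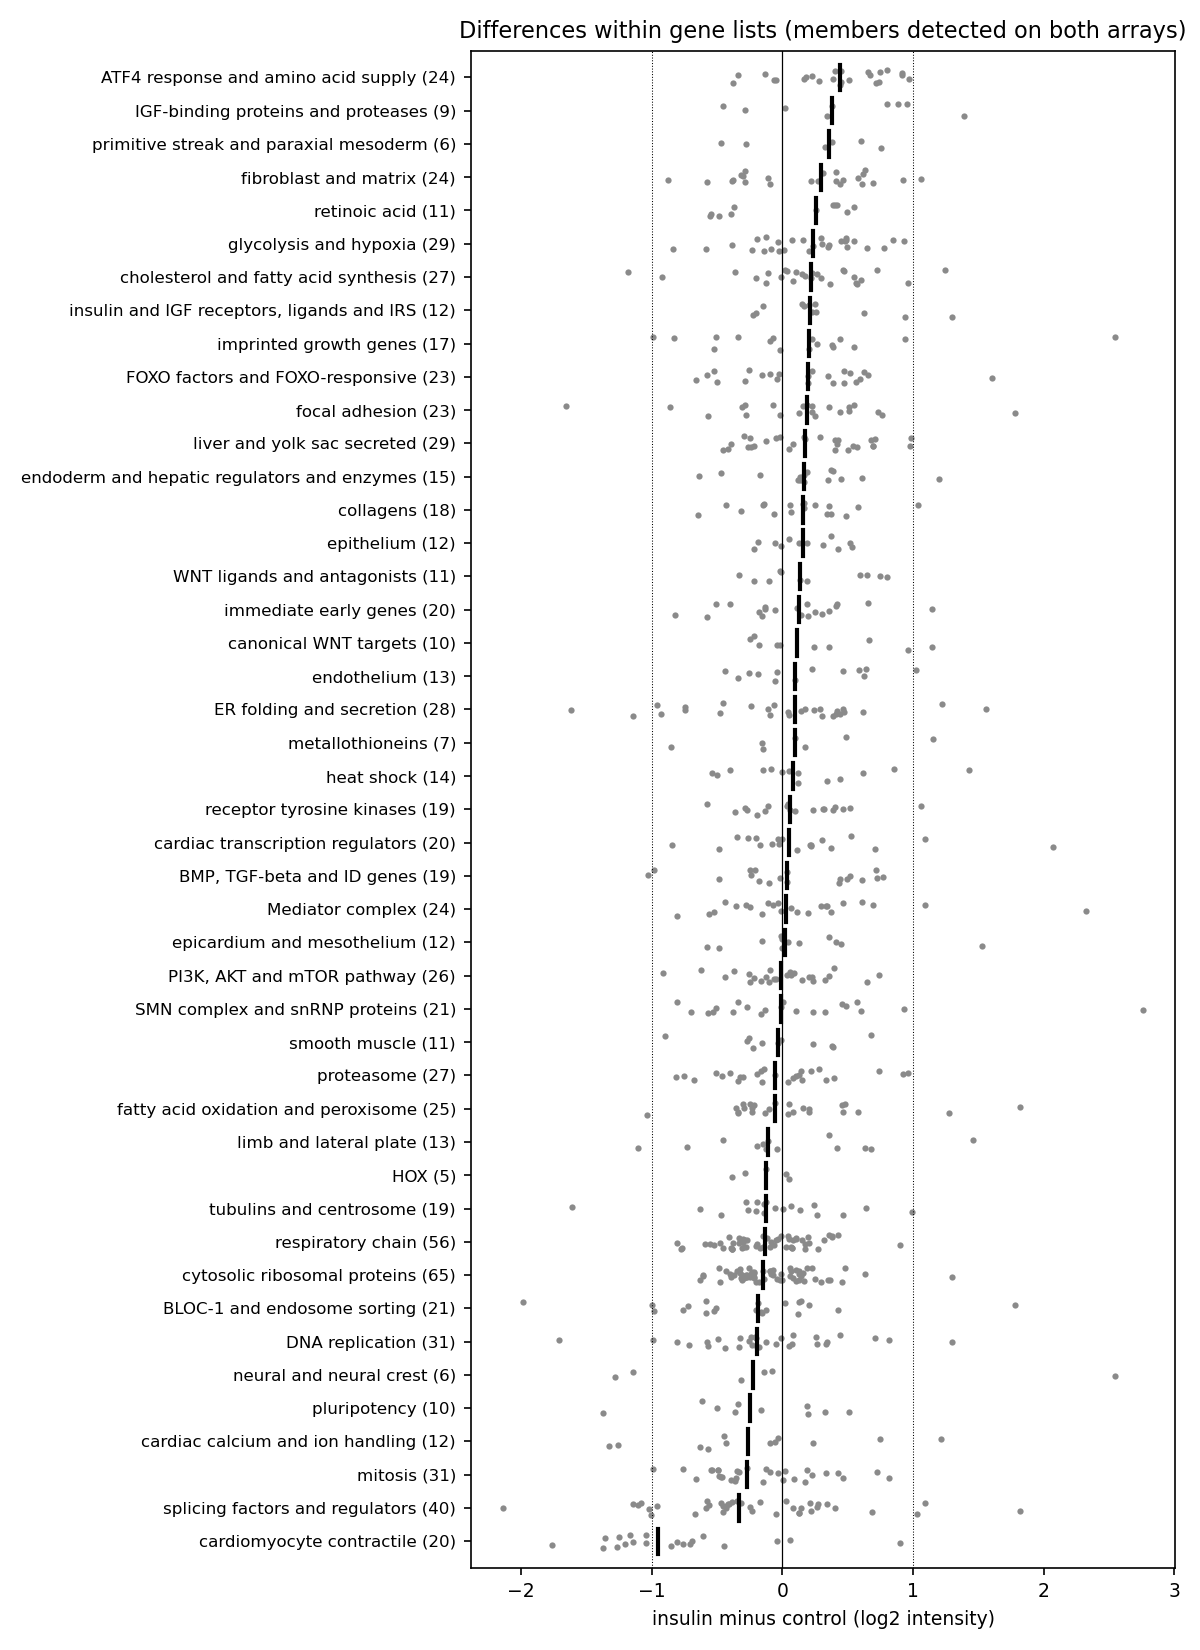
Differences between the insulin and control arrays (insulin minus control, log2 intensity, horizontal axis) for the genes detected on both arrays in each of 45 gene lists with at least 5 such genes, their number in parentheses. Each point is a gene, bars mark list medians and dotted lines 2-fold. Medians run from -0.95 for cardiomyocyte contractile genes to 0.44 for ATF4 response and amino acid supply.

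Agreement between probes of a gene gives a limited check within these arrays. Of 1683 genes with 2 or more probes detected on both arrays, 8 had at least 2 probes past 2-fold in the same direction. FHL2, GOLIM4, LPP, NECTIN3, PNISR, PTBP2 and SMPX were lower with insulin and WHR1 (earlier named STK19) was higher. Over all probes 3.53% passed 2-fold in either direction. How many of the 1683 genes had only 1 probe past 2-fold was not counted. The share of differences borne out by another probe is therefore not given. FKBP1A, the protein that binds rapamycin, was the 1 gene with probes past 2-fold in both directions, at 1.01 and -1.05, and its remaining probes differed by 0.96 and -0.37. Between the probes of the 1493 genes with exactly 2, the median gap in difference was 0.37.

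Position along the chromosomes and promoter composition were compared next. Of 8643 pairs of neighbouring genes detected on both arrays, 6 pairs were both past 2-fold in the same direction. Since 1.71% of single genes passed 2-fold upward and 1.88% downward, some such pairs arise without any link between neighbours. Whether 6 exceeds that number was not tested. A pair on chromosome 20 is the imprinted gene NNAT with BLCAP, whose spans overlap. NNAT read 10.36 with insulin and 7.81 in the control, with 9.03, 9.85 and 8.46 on the IWP2, LY294002 and double-inhibitor arrays, and BLCAP differed by 1.53. Chromosome medians ran from -0.08 on chromosome 8 to 0.09 on chromosome 20. By the share of G and C in the 250 promoter bases, the genes with 73.6% to 96.4%, the highest of 5 equal groups, had a median difference of 0.07, with 37 at least 2-fold higher and 20 lower of 1427. The lowest group, with 26.4% to 55.6%, had a median of -0.02, with 23 higher and 39 lower of 1428. Among motifs searched on both strands, the FOXO site GTAAACA was in 3 of 113 promoters of genes at least 2-fold higher, 4 of 140 of those lower and 1.81% of all, and the E-box CACGTG in 6 of 113, 16 of 140 and 9.07%.

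**Figure D5:**
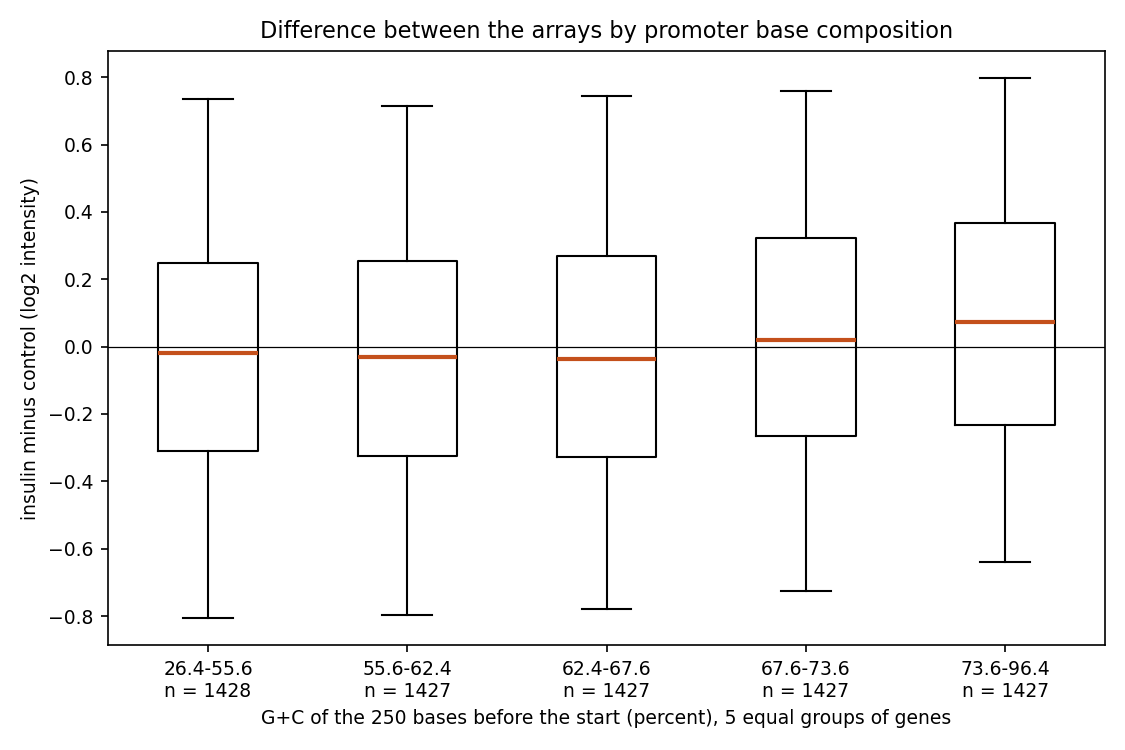
Difference between the insulin and control arrays (insulin minus control, log2 intensity, vertical axis) by the share of G and C in the 250 bases before the start (percent, horizontal axis), in 5 equal groups of the genes with a RefSeq promoter. Boxes show the quartiles, bars the median and whiskers the 5th to 95th percentile. The medians run from -0.04 in the middle group to 0.07 in the highest.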

How the data were processed

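RNA of H1 cells was read on an Illumina expression BeadChip, 1 array per condition and 5 arrays in all, taken to their groups by the treatment label. The authors deposited a non-normalized intensity for each probe with a detection p-value beside it, per the file headers, and a separate deposited table of log2 values. The sources used here do not say how that table was made or how intensities were read from the chip.

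Intensities were background-corrected with normexp on negative controls inferred from the detection p-values, quantile-normalized over the 5 arrays and put on the log2 scale with an offset of 16 (neqc, limma 3.58.1, R 4.3.3). Intensities and log2 values of different probes do not rank transcripts. Later steps used Python 3.11.15, pandas 2.3.3 and numpy 2.4.6. Detection meant a detection p-value under 0.01. Probes were named from the platform annotation, with 30106 carrying 1 symbol, 8 several and 17185 none in that table. They stand for 20041 genes. For the 6690 genes with several probes the one with the highest mean level was used. A gene detected on 1 array has a bound, its bright value set against its own dim value or the lowest detected level of the dim array, whichever is greater, and written as at least N-fold.

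With 1 array a group no test, p-value or error was computed, and the number of arrays limits the precision. Named were the 15 largest differences and 8 largest bounds in each direction, genes whose probes pass 2-fold together or in opposite directions, up to 5 members of each list with a difference of at least 0.58, and 9 fixed genes. Placeholder and Y-linked symbols were counted and not named. Other list members were named after their values were seen. The members and lists were chosen with earlier results of these data known. The alternatives were other scalings, no background correction, other detection rules, the deposited log2 table and the mean of a gene's probes. The code was tested on simulated arrays.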

Additional observations from a re-analysis of the deposited data

How the results depend on the processing

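No paired analysis was possible because each condition has 1 array, and for the same reason no array could be left out in turn. At least 2-fold higher and lower with insulin were 148 and 163 genes. Without background correction the counts were 39 and 31, all among the same genes, a setting that leaves the background in and so compresses dim values by construction. They were 134 and 177 when scaled to the 75th percentile (median of all genes -0.03) and 186 and 146 after cyclic loess (median 0.04). They were 158 and 168 with the insulin and control arrays normalized alone, and 122 and 132 in the deposited log2 values. With detection p under 0.05 they were 168 and 186, with detection on all 5 arrays 104 and 145, and with the mean of detected probes 120 and 131. The pluripotency median of -0.25 was 0.0128 with detection p under 0.05 and 0.19 with detection on all 5 arrays, and the retinoic acid median of 0.26 was -0.0352 and -0.0565 under those settings. These reversals come with other genes entering or leaving the lists. The cardiomyocyte median of -0.95 was -0.69 without background correction, and with detection on all 5 arrays the limb and lateral plate median of -0.11 was 0.16 and the IGF-binding median of 0.38 was 0.80. Counting each list once per alternative setting, the other 361 medians moved by 0.25 or less. Named genes' differences, also counted once per setting, stayed within 0.58 in 1571 cases and moved by more in 59. Of those 59 cases, 44 came without background correction and 15 with the mean of probes. Among differences past 2-fold, 0 changed sign. Promoter composition was compared under other scalings after the data were seen. The groups of genes highest and lowest in G and C had medians of 0.05 and -0.05 scaled to the 75th percentile, 0.12 and 0.01 after cyclic loess, 0.04 and -0.01 without background correction and 0.07 and -0.02 in the deposited table. Signal near background limits the dim genes, since the lowest detected level was 5.33 with insulin and 5.32 in the control.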

Other observations

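Beyond the named genes, 2367 probes with no symbol in the annotation table were detected on both arrays, of which 23 were at least 2-fold higher with insulin and 19 lower (1.77%). Beside NNAT and BLCAP, neighbours past 2-fold in the same direction included PLXNA1 and MCM2 on chromosome 3 (1.14 and 1.30). Further pairs were SRSF8 and ENDOD1 on chromosome 11 (1.82 and 1.14) and TM9SF4 and TSPY26P on chromosome 20 (1.04 and 1.82). On chromosome 7 they were the adjacent genes DNAJB9, IMMP2L and LRRN3 (-1.14, -1.18 and -1.28), where IMMP2L and LRRN3 overlap. Whether such pairs outnumber those of unlinked genes was not tested.

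Endosome sorting genes held large differences in both directions. BLOC1S1, a subunit of the complex that sorts cargo to lysosome-related organelles, read 6.92 with insulin and 8.90 in the control, and its partner gene BLOC1S5 read 6.08 with insulin and 7.06 in the control. COMMD7, of the Commander complex that recycles endosomal cargo, read 9.71 with insulin and 7.93 in the control, and VPS35, of the retromer, read 8.32 with insulin and 9.32 in the control. Of 21 such genes detected on both arrays 1 was at least 2-fold higher and 1 lower, 14 lay below 0, and the median was -0.19.

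Secretory pathway genes also split. SSR2, a subunit of the translocon-associated complex, read 9.44 with insulin and 7.88 in the control (difference 1.56, and 0.60 with its probes averaged), and SEC24D, of the COPII coat, read 8.67 with insulin and 7.45 in the control. GOLIM4, a Golgi membrane protein, read 6.49 with insulin and 8.11 in the control, its other probe differing by -1.12, and the chaperone gene DNAJB9 read 8.0 with insulin and 9.15 in the control. The median over 28 genes was 0.10.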
